A study of Mus musculus with 26 samples.

Results

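The kinesin genes followed here are the 37 rows, of 37450 gene rows in the deposited RNA table, whose symbol is Kif with a number and at most a letter from a to c. They were read in RNA of mouse embryonic stem (ES) cells and of the motor neuron lineage made from them in culture. Other kinesin superfamily genes whose symbols differ from that pattern, such as Cenpe and Kifc1, are not members, and those were counted among the mitotic partners. By roles taken from textbook knowledge, 11 members were placed in a mitotic list, 8 in a list for transport along axons, 6 in a list for cilia and Hedgehog signalling and 4 in a list for vesicle transport in many cell types. The remaining 8 formed a list of other members, among them Kif2a, which works both at spindle poles and in axons. All lists were drawn up with earlier results of these data known. The shared direction of a list is therefore no independent support for it, and no other placement of the members was tried.

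Each of the 4 days had 1 RNA library, made from total RNA after removal of ribosomal RNA. Day 0 held untreated ES cells of the HBG3 line. Day 4 held HBG3 cells that the labels call motor neuron progenitors, exposed from day 2 to 1 uM retinoic acid (RA) and 0.25 uM SAG, a Hedgehog pathway agonist. Days 5 and 6 held iCre cells labelled as postmitotic motor neurons, given the same pair of agents on day 2 and also 5 uM DAPT, which blocks Notch signalling, on day 4 for the first and on days 4 and 5 for the second. A separate label field gives Ainv15 as the ES cell background of every library. No library had a replicate, so no test between days was possible, and a difference between 2 days is a difference between 2 libraries.

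Kinesins are motor proteins that use ATP to move along microtubules or to take microtubules apart. In a dividing cell, one group builds the spindle, lines up the chromosomes and completes the separation of the daughter cells. In a neuron, which no longer divides, another group carries vesicles, mitochondria and proteins from the cell body along the axon, a task that is large in motor neurons because their axons are long. Other motors run along the cilium, where Hedgehog signals are processed.

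Levels are given in FPKM, which divides the fragments of a gene by its length and by the size of the library, so that genes can be compared per length within a library. A difference is the later value of log2(FPKM + 1) minus the earlier one. A gene was tested between 2 days if it reached 1 FPKM in either, and was called higher or lower if the difference reached 2-fold. Of the 37 members, 31 reached 1 FPKM in at least 1 library and 12 in all 4. Kif6, Kif9, Kif17 and Kif27 were below 1 FPKM in every library, and Kif2b and Kif12 were listed at 0 throughout. A member below 1 FPKM in the earlier library enters a comparison only if it is high in the later one, so counts below cover the tested members and not all of them.

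Summed by labelled cell type, the marker genes were highest in the libraries with that label, though single markers differed. The summed level of 4 ES cell markers was 945.9 FPKM on day 0 and between 0.221 and 2.33 later. For 4 progenitor markers it was 4.54, 216.4, 30.1 and 11.9 FPKM on days 0, 4, 5 and 6, and for 6 neuron and motor neuron markers 30.4, 21.7, 504.02 and 681.4. Of the day 0 sum, Stmn2 made up 28.0 FPKM, and it alone of these markers was lower on day 4, at 3.59. Mnx1 alone of them was lower on day 6 (22.0 FPKM) than on day 5 (36.5). Olig2 made up 17.3 FPKM of the progenitor sum on day 5. Markers of other neurons (6 genes) summed to at most 1.45 FPKM in any library, with Pax2 listed at 0 on day 0. Those of mesoderm and blood (4 genes) summed to 16.7 on day 0, of which Pecam1 made up 13.9, and at most 0.376 later, with T listed at 0 on days 4 to 6. The 6 glial markers summed to between 4.93 and 12.6 FPKM, with 1 to 3 of them at 1 FPKM or more, and Aqp4 was listed at 0 on days 0, 4 and 5. Within that sum 2 glial markers moved in opposite directions, Mbp (0.666, 2.18, 11.5 and 9.90 FPKM) and Slc1a3 (3.39, 6.65, 0.3385 and 0.1455). The 4 endoderm and epithelium markers summed to 106.8 on day 0 and to between 2.32 and 5.64 later. The day 0 sum came from Epcam (91.0 FPKM) and Krt8 (15.1), while Sox17 and Gata6 were at 0.104 and 0.582.

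The mitotic kinesins were high in ES cells and progenitors and all 11 lay below 1 FPKM on day 6. Their highest level fell on day 0 in 6 members and on day 4 in 5, without a like share of all genes computed. Kif11, which slides spindle microtubules apart and keeps the spindle bipolar, led the list in every library, with 39.3 FPKM on day 0, 29.2 on day 4, 6.57 on day 5 and 0.814 on day 6. Kif15, a second motor that can hold the spindle bipolar, stood at 15.2, 19.4, 6.09 and 0.491 on the same days. Both were high on days 0 and 4 and below 1 FPKM on day 6 alone.

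The motors of chromosome alignment followed the same course. Kif2c, which depolymerises microtubules at centromeres, went from 23.7 FPKM on day 0 to 20.3 on day 4, 4.85 on day 5 and 0.493 on day 6. Kif18a, which damps chromosome movements on the metaphase plate, stood at 20.4, 14.3, 4.21 and 0.610. Its relative Kif18b, which acts on spindle microtubule length, was lower throughout, at 7.65, 10.4, 1.39 and 0.143. Kif18b kept the smallest part of its day 4 level on day 5 among the 11, 13.4%. The chromokinesins, which bind chromosome arms, were Kif4 (8.64, 12.9, 3.18 and 0.410 FPKM) and Kif22 (12.2, 16.2, 4.78 and 0.726). Both were highest on day 4. Their processed copies Kif4-ps and Kif22-ps have rows of their own, at 0.0408 FPKM or less, and no source used here says how reads shared by gene and copy were counted.

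The motors of cytokinesis completed the list. Kif20a, which brings the Aurora B complex to the central spindle, stood at 32.3, 27.01, 5.32 and 0.686 FPKM. Kif23, the motor of the centralspindlin complex, stood at 15.5, 16.99, 4.61 and 0.589. Kif20b, which acts late in abscission, was the one member lower by more than 2-fold already on day 4, with 23.3, 10.5, 2.83 and 0.718. Kif14, a midbody motor, was the lowest of the 11 in every library, at 5.42, 2.86, 0.905 and 0.0508 FPKM.

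**Figure D1:**
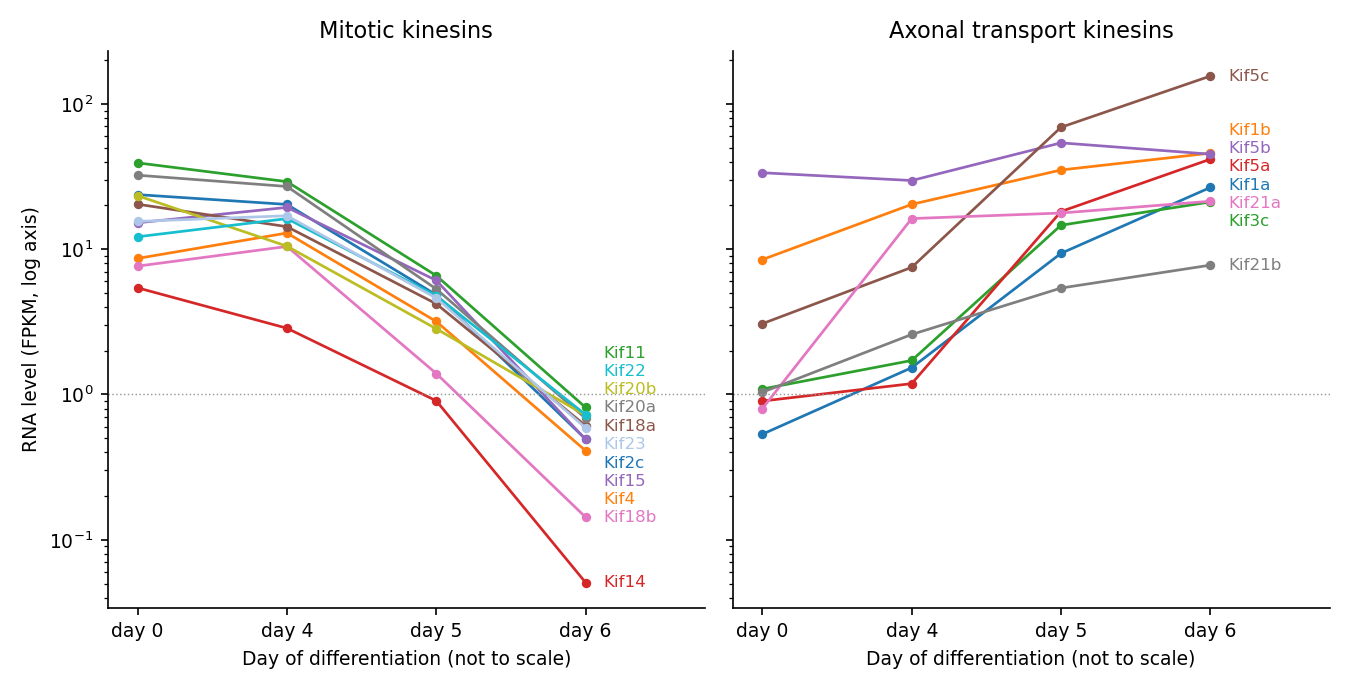
RNA levels of the 11 mitotic (left) and 8 axonal transport (right) kinesins in the library of each day, in FPKM on a log axis; each line is a gene, and the dotted line marks 1 FPKM. Mitotic members run from 5.42 to 39.3 FPKM on day 0 and from 0.0508 to 0.814 on day 6, while axonal members lie between 7.76 and 155.4 on day 6.

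From day 0 to day 4 the mitotic list showed no common direction, with 5 members at a higher and 6 at a lower value, a median difference of −0.21 and 1 of 11 called, Kif20b (−1.08). Over all 11482 genes tested in that step, 11.9% were called lower and 19.3% higher, and the median difference was 0.23. From day 4 to day 5 all 11 were lower by at least 2-fold, with a median of −1.68 and a range from −2.26 for Kif18b to −1.02 for Kif14. In that step 14.7% of 11339 genes were called lower. With the libraries rescaled to a common median ratio, 10 of 11 were called, and Kif14 was at −0.95. Shares of all genes, here and below, are without rescaling. From day 5 to day 6 all 10 tested members were lower again, with a median of −1.78. Only 6.19% of 11164 genes were called lower in that step. Kif14 was not tested there because it was under 1 FPKM on both days.

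The part of its level that each mitotic member kept varied within the list. Day 5 levels were between 13.4% (Kif18b) and 31.7% (Kif14) of those of day 4, with a median of 27.02%. Day 6 levels were between 5.62% (Kif14) and 25.4% (Kif20b) of those of day 5, with a median of 12.8%. These percentages are ratios of FPKM. On that scale Kif11 was 4.44-fold lower on day 5 than on day 4 and 8.07-fold lower on day 6 than on day 5. The log2 differences of the list are smaller, because adding 1 FPKM understates changes of low values. Of the 11 members, 10 were called lower in both steps, against 2.68% of all genes tested from day 4 to day 5. The other, Kif14, was untested in the second step, where it went from 0.905 to 0.0508 FPKM. By the label that separates the lines, the step from day 4 to day 5 is also the change from HBG3 to iCre, and DAPT was given to the day 5 library and not to the day 4 one. The day, the line and DAPT cannot be told apart there. The step from day 5 to day 6 lies within iCre by the same label, with DAPT given once more on day 5.

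The decline went along with that of the progenitor markers, which summed to 216.4, then 30.1, then 11.9 FPKM from day 4 to day 6. One of these markers, Nes, did not share the second step, with 7.48 FPKM on day 5 and 10.1 on day 6, where it made up most of the sum. The part of a change in cell composition in these values was not tested. In bulk RNA, fewer dividing cells and less RNA of a gene per cell cannot be told apart.

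Genes that work beside the mitotic kinesins showed a like course. A list of 18 such partners covers the chromosomal passenger complex, kinetochore and checkpoint genes, mitotic kinases, regulators of cytokinesis, and the kinesins Cenpe and Kifc1. From day 0 to day 4, 1 of 18 was higher, Racgap1, the Kif23 partner in centralspindlin (9.32 to 23.0 FPKM, no longer called after rescaling), and none was lower, with a median of 0.22 that turned to −0.05 after rescaling. The share of all genes called higher was 19.3%. From day 4 to day 5 all 18 were lower (median −2.00), against 14.7% of all genes, and rescaling ended the call of Racgap1 (−1.03, or −0.91 rescaled). The step was led by Birc5 (49.7 to 6.23 FPKM) and Aurkb (31.8 to 4.59), both of the passenger complex. From day 5 to day 6, 17 of 18 were lower (median −1.92), against 6.19% of all genes, led by Prc1, which bundles central spindle microtubules and recruits Kif4 (11.03 to 1.02), and the checkpoint kinase gene Bub1b (7.13 to 0.513). Over the whole course Bub1b went from 47.1 to 0.513 FPKM and Cdk1, the main mitotic kinase, from 65.5 to 1.503.

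Many genes of mitosis carry a CHR element (cell cycle genes homology region), a short stretch near the start of transcription that the DREAM and B-Myb complexes recognise. Its letters are TTTGAA, or TTCGAA in some genes, and a CCAAT box often lies upstream. Since the mitotic members moved together, these letters were searched on both strands of the RefSeq promoter windows of build GRCm38.p6, which run from 250 bases before to 50 after a start. Of the 37 members, 31 were matched by symbol, and Kif5a, Kif5b, Kif13b, Kif19a, Kif20a and Kif21b were not. TTTGAA or its complement TTCAAA was found in 9 of 10 mitotic members, in 1 of 5 axonal members and in 20.2% of all 27025 genes with a window. It was also found in 11 of 15 mitotic partners and 3 of 16 partners of axonal transport. Kif18a was the mitotic member without a match. A gene with several listed starts was counted if the window of any of them held the letters. The axonal match was at a listed start of Kif1a, whose other listed start had none. CCAAT or its complement ATTGG was found in 6 of 10 mitotic members, 1 of 5 axonal members and 41.1% of all genes. TTCGAA, which is its own complement, was found in no mitotic member and in 1.8% of all genes.

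The match nearest the start of each of the 9 mitotic members is shown with 12 bases on either side, because its place and surroundings differ between them. The sequences run 5′ to 3′ in the direction of TTTGAA, which is in capitals, and coordinates are of GRCm38.p6 with the strand printed. In Kif20b a second TTTGAA, left in lower case, follows the marked one directly.
Kif23, chr9:61946780-61946809, minus strand: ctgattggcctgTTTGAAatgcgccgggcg
Kif18b, chr11:102925104-102925133, minus strand: cggaccggctagTTTGAAcgcgccgcgccg
Kif20b, chr19:34922353-34922382, plus strand: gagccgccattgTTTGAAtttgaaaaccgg
Kif22, chr7:127042420-127042449, plus strand: ccgcttctctctTTTGAAttaccggggccc
Kif11, chr19:37376351-37376380, minus strand: ccgcgcctcaatTTTGAAaaatggagacga
Kif15, chr9:122951050-122951079, minus strand: gatggccgcagaTTTGAAtttggcgcccca
Kif4, chrX:100626072-100626101, plus strand: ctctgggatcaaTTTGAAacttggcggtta
Kif2c, chr4:117178858-117178887, plus strand: gcattactcaggTTTGAAagagcagcctgg
Kif14, chr1:136467608-136467637, plus strand: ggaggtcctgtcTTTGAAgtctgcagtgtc
In 7 of these 9 the first base of the match, counted along the gene, lay within 30 bases of the listed start. The distance was 2 bases in Kif23, 3 in Kif18b, 7 in Kif20b, 17 in Kif22, 19 in Kif11, Kif15 and Kif4, 103 in Kif2c and 228 in Kif14. The limit of 30 bases was chosen after these distances were seen. By it, 7 of 10 mitotic members, 9 of 15 mitotic partners, none of 5 axonal members, none of 16 transport partners and 3.72% of all genes held TTTGAA near the start. A match is a description of letters and does not show that a factor binds there.

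The 150 bases before the start are given for 1 member of each list. These are Kif11, the most abundant mitotic member, and Kif5c, the most abundant axonal member on days 5 and 6. Other members differ from this pair. The window of the mitotic Kif18a held neither CCAAT nor TTTGAA, while among axonal members Kif1b held CCAAT and Kif1a TTTGAA. Most genes lack TTTGAA, as 20.2% of all genes held it. Capitals mark CCAAT and TTTGAA or their complements.
Kif11, chr19:37376232-37376381, plus strand: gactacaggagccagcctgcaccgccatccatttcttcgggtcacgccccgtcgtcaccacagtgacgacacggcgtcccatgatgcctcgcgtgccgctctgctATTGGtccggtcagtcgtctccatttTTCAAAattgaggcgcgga
Kif5c, chr2:49619136-49619285, plus strand: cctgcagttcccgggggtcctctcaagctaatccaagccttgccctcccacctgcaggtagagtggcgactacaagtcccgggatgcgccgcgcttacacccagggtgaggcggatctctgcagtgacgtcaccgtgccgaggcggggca
In Kif11 the CCAAT complement began 45 bases and the TTTGAA complement 19 bases before the start. The Kif5c stretch holds neither of these letters, which says nothing of other sequences that act on the gene.

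The axonal kinesins went the other way, and 7 of 8 were highest on day 6. The share of all genes highest on that day was not computed. Kif5a, Kif5b and Kif5c encode the heavy chains of conventional kinesin, the main carrier of vesicles, mitochondria and neurofilaments in axons. Kif5c stood at 3.07 FPKM on day 0, 7.496 on day 4, 69.0 on day 5 and 155.4 on day 6. On day 6 it lay above 99.2% of the genes listed above 0, against 61.6% on day 0. Kif5a, the neuronal heavy chain whose human counterpart is mutated in forms of spastic paraplegia and amyotrophic lateral sclerosis, stood at 0.901, 1.19, 18.2 and 41.6 FPKM. Kif5b, which is expressed in most tissues, was already high in ES cells and varied least, with 33.6, 29.7, 53.9 and 45.1.

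Kif1a, Kif1b, Kif3c, Kif21a and Kif21b make up the rest of the list. Kif1a, which carries precursors of synaptic vesicles, stood at 0.533 FPKM on day 0, 1.53 on day 4, 9.36 on day 5 and 26.6 on day 6, and was the lowest of the 8 in ES cells. Kif1b, whose isoforms carry mitochondria or synaptic vesicle precursors, was 8.48, 20.3, 35.1 and 45.8. Kif3c, a motor of the kinesin-2 family found mainly in neurons, was 1.09, 1.71, 14.6 and 21.1. Values were higher on each later day in these 3 genes, as in every other axonal member but Kif5b. Kif21a, whose human counterpart is mutated in an eye muscle disorder with faulty axon growth, differed most from day 0 to day 4, with 0.800 FPKM on day 0, 16.2 on day 4, 17.7 on day 5 and 21.4 on day 6. Kif21b, a neuronal motor that also restrains microtubule growth, was 1.04, 2.59, 5.40 and 7.76, and was the lowest of the 8 on days 5 and 6.

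From day 0 to day 4, 3 of 8 axonal members were higher, Kif21a (3.26), Kif1b (1.17) and Kif5c (1.06), with a list median of 0.77. Over all genes 19.3% were called higher in that step, with a median of 0.23. After rescaling, which moved the median gene by 0.29, Kif21a alone was still called, and the share of all genes was not recomputed. From day 4 to day 5, 4 of 8 were higher, Kif5a (3.13), Kif5c (3.04), Kif3c (2.52) and Kif1a (2.03), with a median of 1.44. The other 4 had values of 0.84 or less, all above 0, and 11.5% of all genes were called higher in this step. From day 5 to day 6, 3 of 8 were higher, Kif1a (1.41), Kif5c (1.16) and Kif5a (1.15), with a median of 0.48. The share of all genes called higher was 6.57%. These same 3 genes were called higher in both steps from day 4 to day 6, against 2.1% of all genes. Kif5b was the only member at a lower value on day 6 than on day 5 (−0.25), within 2-fold.

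Over the whole course from day 0 to day 6, 7 of 8 axonal members were higher (median 3.52), with Kif5b within 2-fold at 0.41, and all 11 mitotic members were lower (median −3.44). Of all 12073 genes tested over that span, 26.1% were called higher and 23.7% lower, with a median of 0.04. As a ratio of FPKM, Kif5c was 50.6-fold, Kif1a 49.9-fold and Kif5a 46.2-fold higher on day 6 than on day 0. Kif21a was 26.7-fold, Kif3c 19.4-fold, Kif21b 7.49-fold and Kif1b 5.40-fold higher. The summed neuron and motor neuron markers went from 30.4 to 681.4 FPKM over the same span and the glial marker Mbp from 0.666 to 9.90, and the part of a change in cell composition in the axonal values was not tested.

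**Figure D2:**
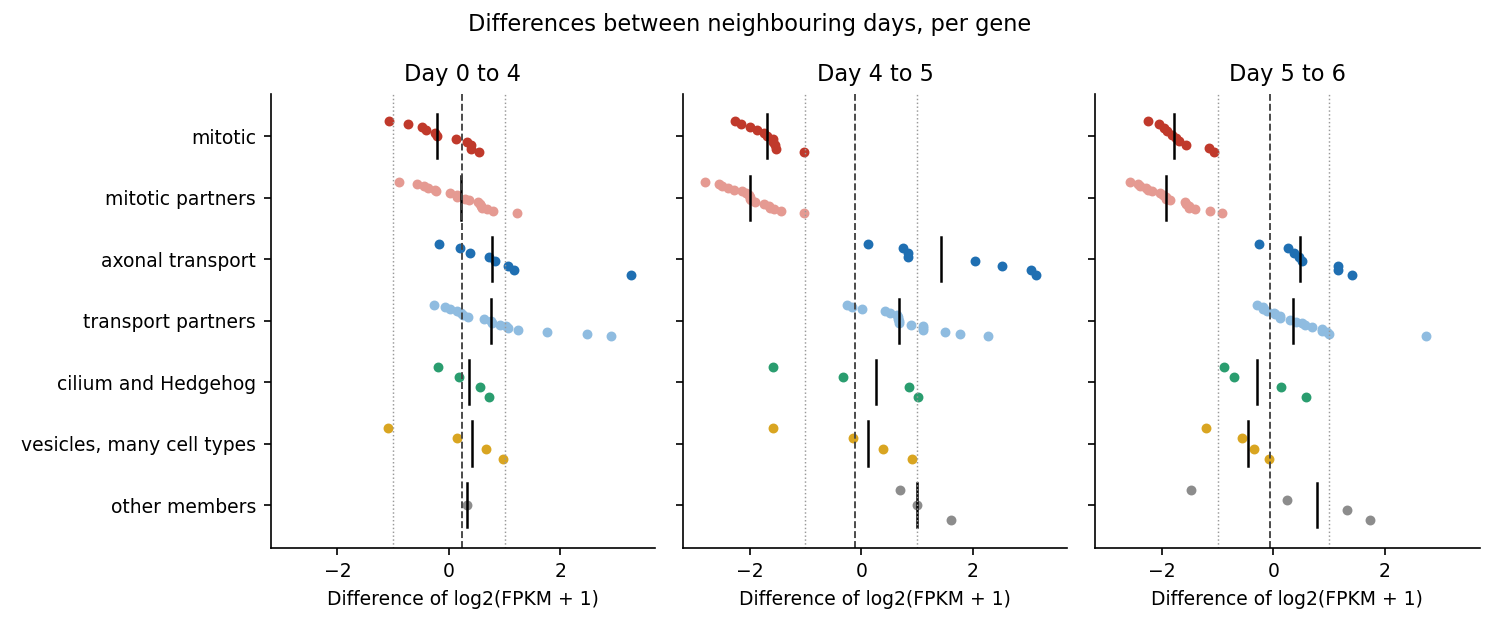
Differences of log2(FPKM + 1), later day minus earlier day, for each tested gene of the role lists and of the 2 partner lists; each point is a gene, black bars are list medians, the dashed line is the median of all genes and dotted lines mark 2-fold. From day 4 to day 5 the mitotic points lie between −2.26 and −1.02 and the axonal points between 0.12 and 3.13.

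The shift showed most plainly in the summed level of each list. The 11 mitotic kinesins summed to 203.6 FPKM on day 0, 180.1 on day 4, 44.7 on day 5 and 5.73 on day 6. The 8 axonal kinesins summed to 49.5, 80.8, 223.3 and 364.7. The mitotic sum was thus 4.11 times the axonal sum on day 0 and 2.23 times on day 4, while the axonal sum was 4.99 times the mitotic one on day 5 and 63.6 times on day 6. Mitotic members held 69.7% of all kinesin FPKM on day 0 and 1.29% on day 6, and axonal members 16.9% and 82.4%. All 37 members together differed less, with 292.2 FPKM on day 0, 312.5 on day 4, 335.7 on day 5 and 442.8 on day 6. Kif5c alone supplied 155.4 of the 442.8 FPKM on day 6, and Kif5b 33.6 of the axonal 49.5 on day 0. The ratios and shares depend on which list a gene is in. Kif2a, counted among the other members though it also works at spindle poles, stood at 15.7 FPKM on day 6, above the mitotic sum of 5.73.

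**Figure D3:**
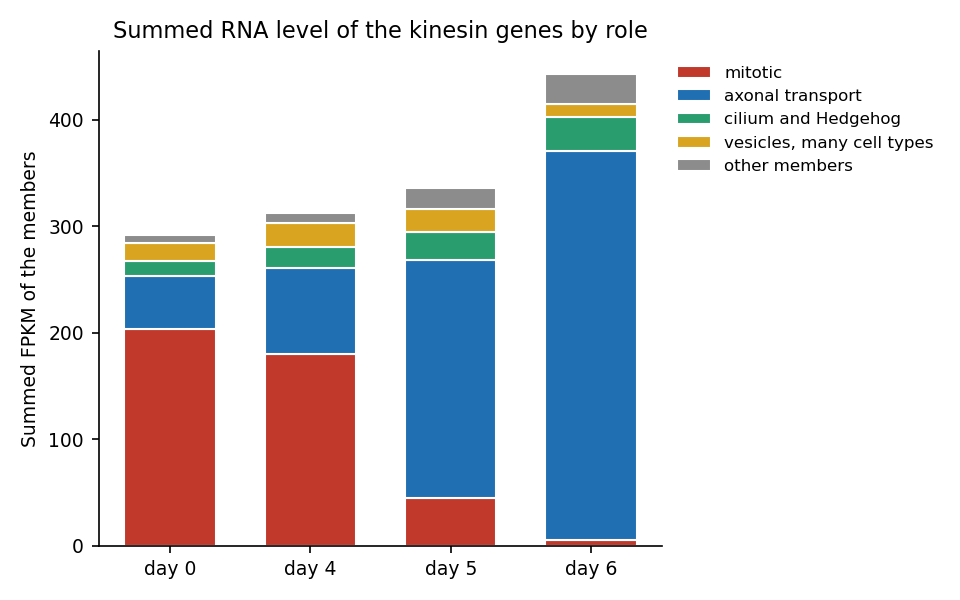
Summed FPKM of the members of each role list in the library of each day, stacked to the total of the 37 genes. The mitotic part shrinks from 203.6 to 5.73 FPKM and the axonal part grows from 49.5 to 364.7, while the total runs from 292.2 to 442.8.

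Paralogs within a subfamily differed in how their shares moved. Of the FPKM of the Kif5 genes, Kif5b held 89.4% on day 0, 77.4% on day 4, 38.2% on day 5 and 18.6% on day 6. Kif5c held 8.18%, 19.5%, 48.9% and 64.2% on the same days, and Kif5a 2.40%, 3.10%, 12.9% and 17.2%. The 3 genes together went from 37.5 to 242.0 FPKM, so the smaller share of Kif5b came with a level that stayed between 29.7 and 53.9. In the Kif1a and Kif1b pair, from which Kif1c was left out, Kif1a held 5.91% on day 0 and 36.7% on day 6. Of the pair, Kif1b was the larger in every library. Of the Kif3 genes, Kif3c held 11.5% on day 0 and 40.8% on day 6, while Kif3b went from 42.2% to 14.9% and Kif3a was at 46.2% and 44.3%. In the Kif21 pair, Kif21b was slightly ahead on day 0 with 56.4% of a sum of 1.84 FPKM, and Kif21a held 86.3% on day 4 and 73.4% on day 6. Without replicates, neighbours in these orders that lie close together, such as Kif5a and Kif5b on day 6 (41.6 and 45.1 FPKM) or Kif3c and Kif21a on day 6 (21.1 and 21.4), cannot be ranked.

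**Figure D4:**
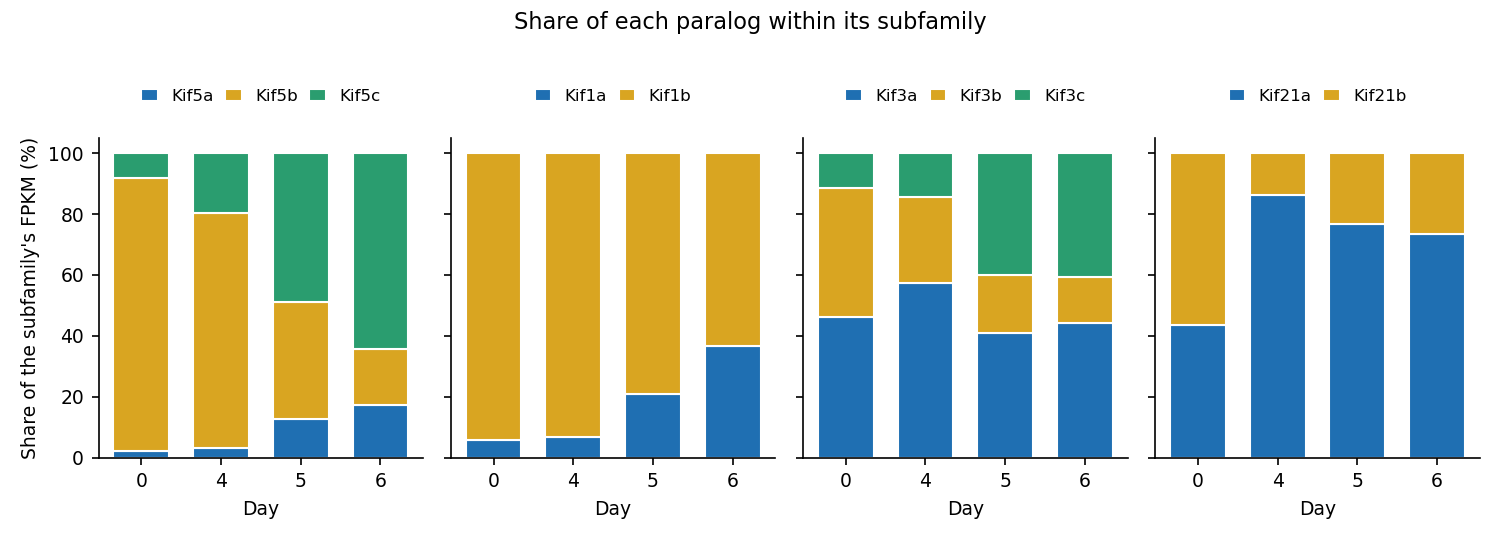
Share in percent of each paralog in the summed FPKM of the genes of its panel, by day. The panels hold the Kif5 genes, the Kif1a and Kif1b pair, the Kif3 genes and the Kif21 pair. Kif1c was left out of the Kif1 panel, and each bar is 1 library. Kif5b takes 89.4% of the Kif5 sum on day 0 and 18.6% on day 6, where Kif5c takes 64.2%.

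Partners of the axonal motors were higher over the whole course in 14 of 18 genes. The list of 18 holds kinesin light chains, cargo adaptors and subunits of dynein and dynactin, which carry cargo back to the cell body. From day 0 to day 4, 6 of 17 tested were higher, against 19.3% of all genes. They were led by Mapk8ip1, a scaffold that links kinesin to vesicles (2.11 to 22.4 FPKM), and the adaptor gene Fez1 (2.86 to 20.5). After rescaling 3 of the 17 were called, for which no rescaled share of all genes was computed. From day 4 to day 5, 6 of 17 were higher (median 0.68), against 11.5% of all genes, led by Mapk8ip2 (1.70 to 12.1) and Kidins220, a membrane protein that kinesin carries (6.55 to 24.7). From day 5 to day 6, 1 of 18 was higher, Dync1i1, the neuronal dynein intermediate chain (0.502 to 8.96), and rescaling gave 3. With 6.57% of all genes called higher in that step, 1 of 18 is near the background. No partner was lower in any of these steps. Over the whole course 14 of 18 were higher (median 2.03), against 26.1% of all genes, and rescaling ended the call of Dync1h1, the dynein heavy chain (1.04, or 0.99 rescaled). Among the 14 were Klc1, a light chain of conventional kinesin, which went from 5.40 to 118.5 FPKM, and Mapk8ip2, from 0.575 to 20.2.

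The motors of cilia and Hedgehog signalling diverged among themselves. Kif3a and Kif3b, which with Kifap3 form the motor that builds cilia and also work in axons, were higher later, with Kif3a at 4.37, 6.89, 15.0 and 23.0 FPKM. Kif3a was called higher from day 4 to day 5 (1.02), and Kif3b (4.00, 3.38, 6.94 and 7.74) was called in no comparison. From day 4 to day 5 the difference of Kif3b was 0.86, though its ratio of FPKM was 2.05. Kif24, which restrains the formation of cilia at the centriole, was, like the mitotic list, lower on days 5 and 6, with 3.39 FPKM on day 0, 6.23 on day 4, 1.43 on day 5 and 0.480 on day 6. Its difference from day 4 to day 5 was −1.57, within the mitotic range of −2.26 to −1.02. From day 5 to day 6 it was at −0.71 and not called, outside the mitotic range of −2.25 to −1.07, and from day 0 to day 6 it was at −1.57, where the mitotic list ran from −4.47 to −2.61. Its promoter window held 4 CCAAT complements, at 240, 158, 116 and 74 bases before the start, and TTCGAA at 26 bases before it. Kif7, which controls Gli factors at the tip of the cilium, stood at 2.62, 3.09, 2.27 and 0.778 FPKM, and was called lower only from day 0 to day 6 (−1.02). Kif17 and Kif27 were at most 0.286 and 0.495 FPKM.

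Motors of vesicle transport in many cell types had no common course. Kif1c, a motor for vesicles and the Golgi, was highest on day 4, with 4.35, 9.44, 2.48 and 1.35 FPKM, and was lower from day 4 to day 5 (−1.58). Kif13b, a carrier of membrane cargo, had a single high value on day 5, with 5.56, 6.28, 12.7 and 4.89, and was lower from day 5 to day 6 (−1.22). Its difference from day 4 to day 5 was 0.91, or 1.04 after rescaling. Kif16b, a motor of early endosomes, was highest in ES cells, with 4.00, 1.34, 2.05 and 1.89, and was lower from day 0 to day 4 (−1.10). Kif13a ranged from 2.97 to 5.31 FPKM with no call.

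Among the other members, Kif26a and Kif26b, atypical kinesins that do not move along microtubules and act in signalling, appeared late. Kif26a stood at 0.856, 0.721, 2.43 and 7.53 FPKM, and Kif26b at 0.122, 0.0580, 0.522 and 4.04. Both were called higher from day 5 to day 6, by 1.31 and 1.73. Kif26a was at 0.99 from day 4 to day 5, or 1.09 after rescaling. Kif2a, a depolymerase that trims axon branches and also works at spindle poles, stood at 5.96, 7.66, 13.1 and 15.7, without the decline of its mitotic relative Kif2c. It was called higher only from day 0 to day 6 (1.26). Kif19a, which shortens motile cilia, was above 1 FPKM on day 5 alone, with 0.152, 0.237, 2.76 and 0.352, and was called higher into day 5 (1.60) and lower out of it (−1.48). Kif6 and Kif9, known from motile cilia and sperm tails, were at most 0.497 and 0.201 FPKM.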

How the data were processed

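FPKM values were deposited by the authors for 37450 gene IDs with their symbols, in 1 library for each of days 0, 4, 5 and 6. Which program computed them is not stated in the labels or the table. The submitters' processing notes list STAR, MACS, HOMER (4.7.2) and Bowtie (0.12.7) and the build mm9 without saying what each was used for. No source used here gives read totals, so counting error could not be set beside low values. Among genes below 0.05 FPKM in both libraries, the commonest ratio of day 4 to day 5 was 1.07 (20.5% of 512 genes) and of day 5 to day 6 1.32 (26.6% of 624), in bins of 0.1 on the log2 scale. For day 0 to day 4 it was 0.500 (11.1% of 574).

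Differences were computed with a pseudocount of 1 FPKM, a floor of 1 FPKM in either library and a 2-fold call, in Python 3.11.15 with pandas 2.3.3 and NumPy 2.4.6. Each member symbol had a single row, and Map2, a neuron marker, was taken by its gene ID. Members and lists were chosen with earlier results of these data known. All mitotic and axonal members are named, and of other lists those at 1 FPKM or more in a library that reached 2-fold in any comparison, with the rest given by range. Of each partner list, the 2 called genes with the largest difference per comparison are named, or 1 where a single gene was called. Kif24 and Kif13b were also described after their values were seen. The peak and event lists, in mm9, were not used here, since gene positions in that build were not at hand.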

Additional observations from a re-analysis of the deposited data

How the results depend on the processing

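Counts and medians were recomputed with a pseudocount of 0.1 FPKM, with no floor, after rescaling to a common median ratio (shifts of 0.29, −0.14 and −0.09 on the log2 scale for the 3 steps and 0.05 from day 0 to day 6) and with 1.5-fold and 3-fold calls. Mitotic members called lower from day 0 to day 4 numbered 2 at 1.5-fold and 0 at 3-fold in place of 1. At 3-fold they numbered 6 in place of 11 from day 4 to day 5, and 7 in place of 10 from day 5 to day 6. Mitotic partners called lower at 3-fold numbered 15 in place of 18 from day 4 to day 5, and 12 in place of 17 from day 5 to day 6. Other changes of a count by 1.5 times or less are not listed here. With the pseudocount of 0.1 the mitotic medians were −2.73 (day 5 to day 6) and −4.85 (day 0 to day 6), those of the mitotic partners −2.92 and −5.07, and the axonal median from day 0 to day 6 was 4.37. Axonal members called higher from day 0 to day 4 numbered 5 with the pseudocount of 0.1, 1 after rescaling, 5 at 1.5-fold and 1 at 3-fold in place of 3. They numbered 7 at 1.5-fold from day 4 to day 5 in place of 4, and 0 at 3-fold from day 5 to day 6 in place of 3. Of the mitotic partners from day 0 to day 4, 4 were higher at 1.5-fold and 0 at 3-fold or after rescaling, 1 was lower at 1.5-fold and 1 after rescaling, and the rescaled median was −0.05. Transport partners called higher from day 0 to day 4 numbered 3 after rescaling, 10 at 1.5-fold and 3 at 3-fold in place of 6. From day 4 to day 5 they numbered 12 at 1.5-fold and 2 at 3-fold in place of 6. From day 5 to day 6 they numbered 2 with the pseudocount of 0.1, 3 after rescaling and 6 at 1.5-fold in place of 1. Leaving out Kif22 and Kif4, an alternative chosen after seeing the data, moved no mitotic count by more than 1.5 times. The causes of these shifts were not tested, beyond the stricter or looser call itself. The alternatives for peaks at promoters (window, score and, for day 4 H3K27ac, each library) were not run, since no peaks were placed at genes. No paired analysis was possible because each RNA day had 1 library and no test was made. Low values limit the mitotic list on day 6, where all 11 members lie below 1 FPKM and the reads behind each value are unknown.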
